A study of Rattus norvegicus with 16 samples.

Results

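The myxovirus resistance gene *Mx1* and 8 other interferon-induced genes were examined in rat hepatoma H35 cells in which *Pdrg1* had been silenced with short hairpin RNAs (shRNAs). The 9 genes were chosen by name after *Mx1* had been seen to be much lower in the silenced cells on these same arrays. The other genes were *Mx2*, *Oas1a*, *Irf7*, *Isg15*, *Stat2*, *Irf9*, *Irf1* and *Eif2ak2*, and together the 9 genes had 11 probes among the 30367 probes and 26269 gene names of the array. The arrays were used to ask whether the lower level of *Mx1* was shared by other interferon-stimulated genes. They were also used to ask whether cells with an shRNA against *Pdrg1* had higher levels of such genes than cells with a control shRNA. The level of *Mx1* against the control was what led to the choice, so it is given below as a description, with no test.

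Interferons are secreted proteins that cells release when they sense viral nucleic acid, including double-stranded RNA, and hairpin RNAs made from plasmids are a well-known possible trigger of the same sensors. Type I and type III interferons bind their receptors and activate the kinases JAK1 and TYK2, which phosphorylate STAT proteins, STAT2 among them. The complex ISGF3, which contains STAT2 and IRF9, binds the interferon-stimulated response element (ISRE) in promoters, whereas interferon γ acts mainly through the gamma-activated site (GAS). *Mx1*, *Oas1a*, *Isg15* and *Eif2ak2* are textbook targets of the type I response.

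The 16 one-color Agilent arrays comprised 4 biological replicates of each of 4 groups, each sample being read on 1 array. All groups came from the H35 line, carried SureSilencing plasmids delivered by transfection, and had passed through an enrichment of 2 weeks in 1.8 mg/ml G418. CN-10 was a stable clone with a negative control shRNA, 4-18 a stable clone with shRNA4 and 3-44 a stable clone with shRNA3. These stable clones were obtained with a further 2 weeks at 4 mg/ml G418. The last group, shRNA3T, was a pool transfected transiently with shRNA3 and enriched, not cloned. Since each stable group is a single clone, a property of the clone and an effect of its hairpin cannot be told apart. The 4 groups lay on 4 slides, 1 group to a slide, and 4-18 had a scan day of its own, so that slide and group cannot be told apart. Untransfected cells and cells given interferon are not among the arrays. The control clone carried a hairpin too, so a response shared by all groups would not show in the comparisons with CN-10.

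Levels are log2 intensities after background correction and quantile normalization, and a difference of 1 on this scale is a 2-fold difference. Arrays within a group correlated at 0.987 to 0.998 and arrays of different groups at 0.974 to 0.993. A spot counts as measured where the scanner software marked it well above background, which held for 53.1 to 64.1% of spots on the 4-18 arrays, for 65.8 to 74.3% in 3-44, and for 64.7 to 70.9% in the other groups. *Pdrg1*, the targeted gene, lay between 13.41 and 13.88 in CN-10, 11.57 and 13.34 in 4-18, 11.89 and 12.95 in 3-44, and 12.39 and 12.97 in shRNA3T. The 4-18 arrays read 11.57, 13.33, 13.34 and 13.25, so only replicate 1 lay far below the lowest control array. No silenced array reached the lowest control array, with two-sided exact permutation p = 0.0286 in each comparison, the smallest that 4 arrays against 4 can give. In the limma fit over all probes the differences of *Pdrg1* were -0.77, -0.99 and -0.85, with adjusted p = 0.129, 0.105 and 0.143. Of the hepatocyte markers, *Alb*, *Ttr*, *Fgb*, *Afp*, *Serpina1* and *Tf* were well above background on every array, and *Apoa1* on every array outside 4-18. Some of them differed strongly from CN-10. In 4-18, 3-44 and shRNA3T the differences were 2.93, 2.84 and 2.39 for *Ttr*, and -2.12, 2.18 and 0.04 for *Apoa1*. They were -1.50, 1.02 and 0.23 for *Tf*, and 0.10, -0.07 and 0.08 for *Alb*.

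The probes and promoters of the members show what was read and what the interferon pathway is known to act on. *Mx1* and *Mx2* lie near each other on chromosome 11 and belong to 1 family of dynamin-like GTPases, so whether their probes could share signal matters for the comparison below. The first 30 of the 60 bases of each probe are shown for this reason, in lower case throughout.
Mx1 probe, rn4 chr11:37438580-37438639, minus strand: atcatcctttcacctgtgtccgcttcagga
Mx2 probe, rn4 chr11:37572657-37572716, plus strand: atggatggtactgggctttgtatgtttagg
Over their whole length the probes had the same base at 15 of 60 positions (25%), and the longest run they shared was 4 bases, or 5 with one of them reversed and complemented. Positions are those of the array files on the rn4 build. The part of the transcript that each probe reads is not given, since no gene annotation on that build was used here.

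The promoters of 7 members had an entry of 300 bases (250 before the start site) in RefSeq's GRCr8 assembly, those of *Mx2* and *Isg15* being the exceptions. They were searched on both strands for the ISRE letters GAAANNGAAA and the GAS letters TTCNNNGAA. The 30 bases around the ISRE are shown for the 3 members that had one, with the matched letters in capitals.
Oas1a, GRCr8 chr12:41330418-41330447, plus strand: ctctcggGAAATGGAAACTGAAAatcttgt
Irf7, GRCr8 chr1:205800073-205800102, minus strand: acagtttaggTTTCATTTTCccgagacgca
Eif2ak2, GRCr8 chr6:21941128-21941157, plus strand: agtccgccggGAAAACGAAAcagagagaac
The stretch in *Oas1a* holds 2 overlapping matches, which begin at positions -41 and -35 from the start site. The match of *Irf7* reads on the opposite strand of the gene. The start sites used are not always the outer ends of the annotated genes. The bases shown for *Irf7* lie inside the gene, which begins at position 205800543 on the minus strand. The window of *Irf9* (GRCr8 chr15:33065586-33065885) also lies inside its gene, which begins at 33065422. An ISRE with these letters was present in 3.92% of the 33469 promoters in the table. GAS letters were present in *Oas1a*, *Irf9* and *Irf1*, and in 8.87% of all promoters. The windows of *Mx1* (GRCr8 chr11:50294557-50294856) and *Stat2* held neither, which says only that these letters are not in these windows.

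*Mx1* encodes a GTPase that blocks the multiplication of RNA viruses and is among the most strongly interferon-induced genes known. Its probe, printed once on each array, read 11.95, 11.38 and 11.79 in CN-10 replicates 2 to 4. Replicate 1 was set aside for an outlier flag of the scanner software and read 11.62 when kept. The 4-18 arrays read 7.64, 7.47, 7.47 and 7.21.
The 3-44 arrays read 9.52, 9.81, 9.93 and 10.03, and the shRNA3T arrays 8.83, 9.38, 9.23 and 9.18. The 4 groups did not overlap, with CN-10 highest, then 3-44, then shRNA3T, then 4-18. In 4-18 the signal was close to background, since the spot was well above background on 3 of the 4 arrays and not on replicate 2. Before any normalization the mean spot signals ran from 3109.8 to 4309.5 in CN-10, from 105.8 to 147.1 in 4-18, from 620.2 to 1213.2 in 3-44 and from 412.6 to 881.1 in shRNA3T.

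The group means of *Mx1* were 11.71 ± 0.29 (SD, n = 3) in CN-10, 7.45 ± 0.18 (n = 4) in 4-18, 9.82 ± 0.22 (n = 4) in 3-44 and 9.16 ± 0.24 (n = 4) in shRNA3T. Against CN-10 the log2 difference was -4.26 in 4-18, a level 19.2-fold lower. Since the spots of 4-18 were near background, that size depends on the processing, and it was 12.9-fold to 29.6-fold over the other scalings (-3.69 with percentile scaling to -4.89 from the processed signal). The difference was -1.88 in 3-44, or 3.69-fold lower, and -2.55 in shRNA3T, or 5.86-fold lower. With the outlier spots kept these differences were -4.24, -1.86 and -2.53. In bulk RNA, fewer cells making *Mx1* and less *Mx1* RNA per cell cannot be told apart.

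The silenced groups were not compared with one another when *Mx1* was picked, but their values against the control had entered the choice. The p-values of *Mx1* between them are therefore not free of that selection. The level in 4-18 was lower than in 3-44 by 5.19-fold (log2 difference -2.37, limma adjusted p = 9.58e-08; 3.42-fold to 8.3-fold over the other scalings). It was lower than in shRNA3T by 3.27-fold (-1.71, limma adjusted p = 2.96e-06; 2.15-fold to 4.38-fold). The clone 3-44 and the pool shRNA3T carry the same hairpin, and 3-44 was higher by 1.59-fold (0.67, limma adjusted p = 0.012), a call that was lost with percentile scaling, centred or not, with cyclic loess and without scaling. All 3 pairs were without overlap, with exact permutation p = 0.0286 each.

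**Figure D1:**
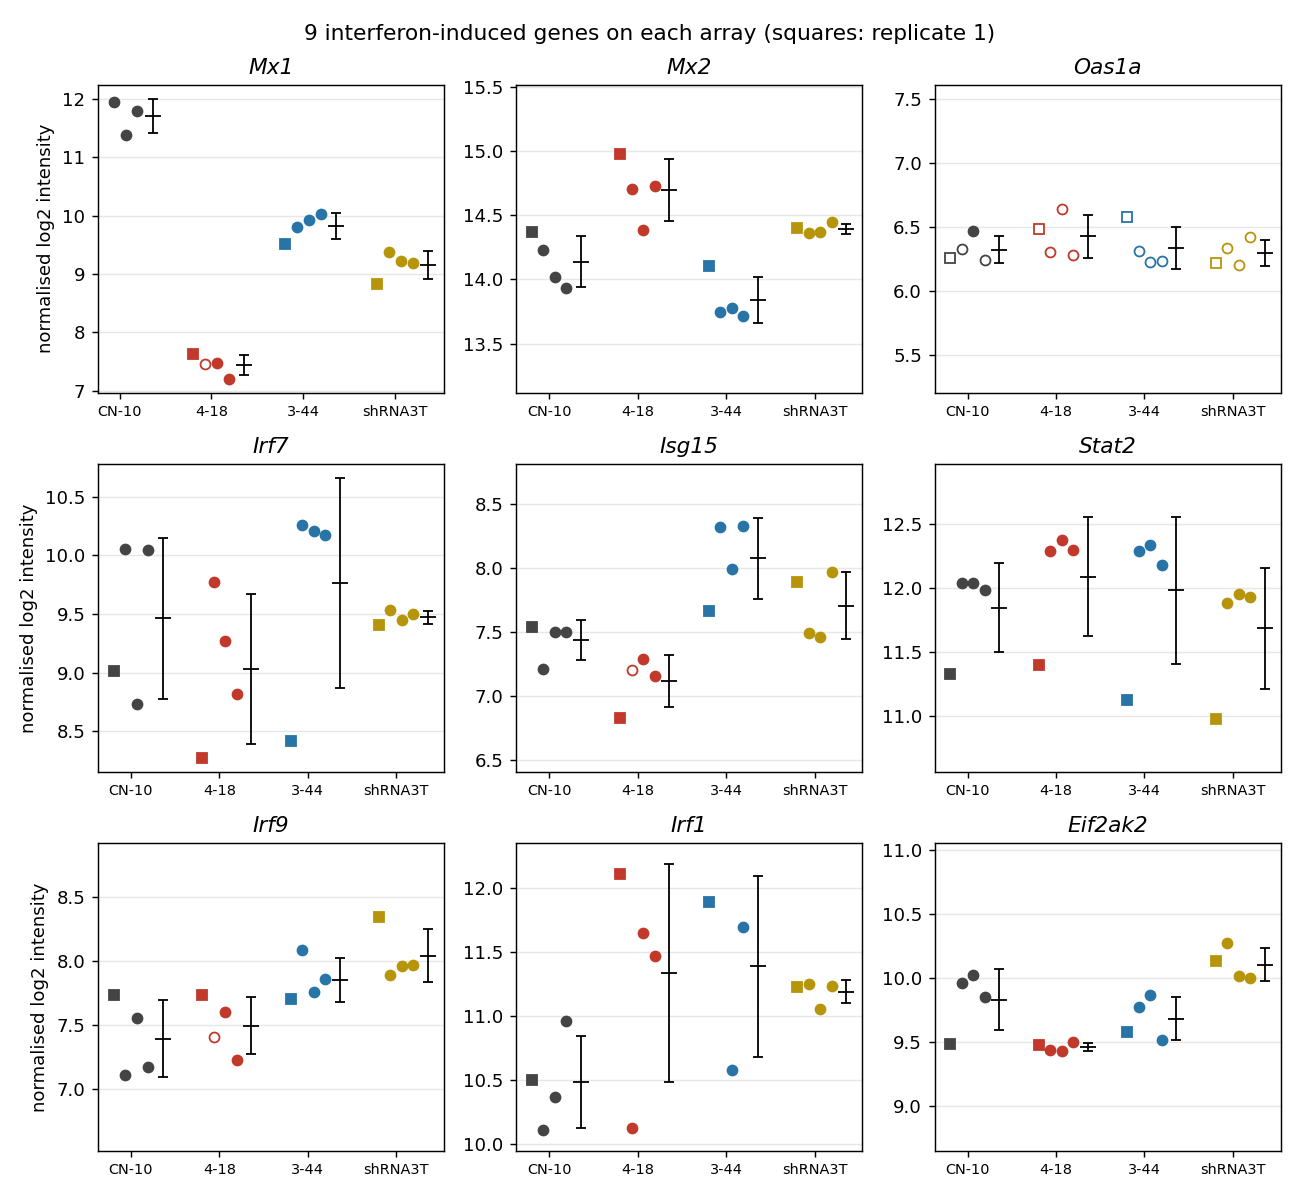
Log2 intensity (quantile normalized) of each of the 9 members on every array, by group, with 1 point per array (squares for replicate 1, open symbols for spots not well above background) and the group mean with its SD in black. *Mx1* falls into 4 separate levels, from 11.71 in CN-10 to 7.45 in 4-18, whereas the group means of each other member, read by its brightest probe, lie within 1 log2 unit.

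No other member showed a difference of the size seen for *Mx1*, although *Oas1a* was too dim to judge. At the study's own limit, a 2-fold change with an adjusted p under 0.05, 0 of the other 8 members were called in any of the 3 comparisons with CN-10, in the limma fit with each gene read by its brightest probe. The dimmer probe of *Irf1* did meet the limit in 3-44. Over all probes that limit called 2.55% as higher and 3.36% as lower in 4-18, 0.682% and 0.721% in 3-44, and 1.12% and 1.17% in shRNA3T. At an unadjusted p under 0.05 there were 3, 4 and 2 of the 8 members, beside 34%, 19.3% and 22.8% of all probes. By the adjusted p alone, *Mx2* was higher and *Eif2ak2* lower in 4-18, *Isg15* was higher in 3-44 and *Irf9* in shRNA3T, again by brightest probe, and the dimmer *Irf1* probe was higher in both clones. The share of all probes passing in that way was 11.6% higher and 12% lower in 4-18, 3.48% and 4.37% in 3-44, and 5% and 6.85% in shRNA3T. The median difference over the 7 members without *Mx1* and *Oas1a* was 0.10 in 4-18, 0.30 in 3-44 and 0.27 in shRNA3T, beside 0.0057, -0.0031 and -0.0072 over all probes. These 3 comparisons share the CN-10 arrays and are therefore not independent of one another. The exact permutation p of single genes is not adjusted for the number of genes or comparisons. The share of all probes without overlap between groups was not computed, so an absence of overlap has no such share beside it.

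**Figure D2:**
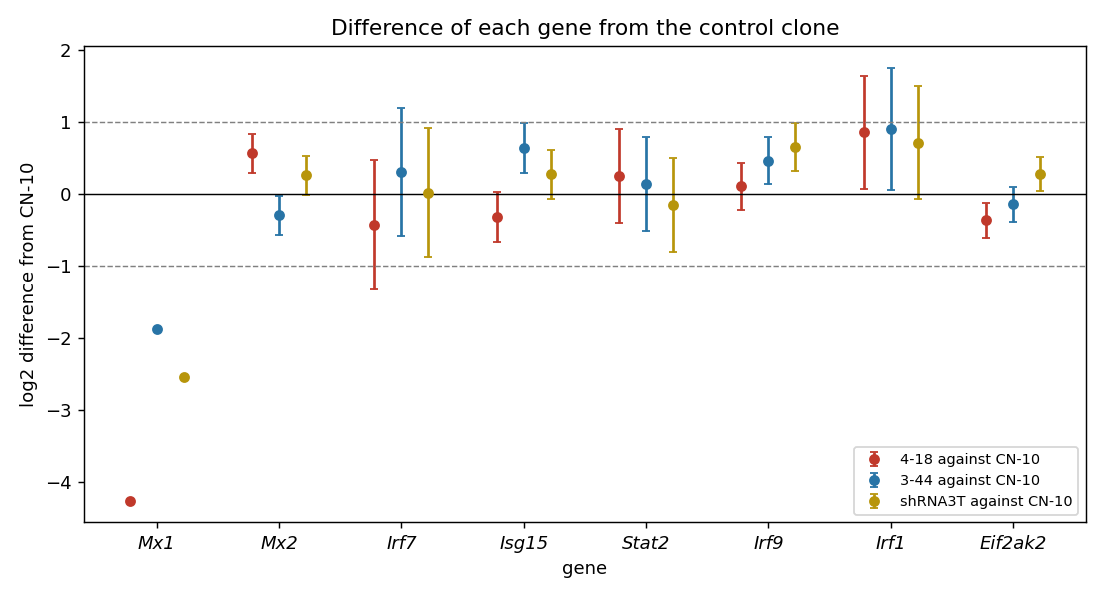
Log2 difference from CN-10 of each member but *Oas1a* in 4-18, 3-44 and shRNA3T, with the 95% interval of the limma fit (none for *Mx1*, chosen on this difference) and dashed lines at a 2-fold difference. *Mx1* lies at -4.26, -1.88 and -2.55, and the other members shown, each read by its brightest probe, lie between -0.43 and 0.90.

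Among the effectors, *Mx2* encodes the second GTPase of the family. It was bright on every array, with 14.37, 14.23, 14.02 and 13.93 in CN-10 and 14.98, 14.70, 14.39 and 14.73 in 4-18. The 3-44 arrays read 14.11, 13.75, 13.78 and 13.72, and the shRNA3T arrays 14.40, 14.36, 14.37 and 14.45. Every array of 4-18 was above every control array, if by little, while the other 2 groups overlapped the control.
The difference in 4-18 was 0.56 (1.48-fold, limma adjusted p = 0.00421, exact permutation p = 0.0286), but turned to -0.31 with scaling on the 75th percentile centred on the median probe and to -0.17 without scaling. In 3-44 it was -0.30 and in shRNA3T 0.26, with limma adjusted p = 0.197 and 0.247. *Mx2* in 4-18 exceeded 3-44 by 0.86 (limma adjusted p = 0.000151), passing under 4 of the 6 other scalings, but by -0.0168 under the centred percentile scaling. The difference of 3-44 from shRNA3T was -0.56 (limma adjusted p = 0.00988), and passed under 3 of the 6 other scalings. So 4-18, with the lowest *Mx1*, had the highest mean of *Mx2* of the 4 groups under quantile normalization.

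*Isg15*, a ubiquitin-like protein that is attached to other proteins after interferon, was dim. The arrays read 7.54, 7.21, 7.50 and 7.50 in CN-10 and 6.83, 7.20, 7.28 and 7.15 in 4-18, where 3 of 4 were well above background. They read 7.66, 8.32, 7.99 and 8.32 in 3-44 and 7.89, 7.49, 7.46 and 7.97 in shRNA3T. All 3-44 arrays lay above the control arrays, and the other groups overlapped them.
The difference was 0.64 in 3-44 (1.56-fold, limma adjusted p = 0.0241, exact permutation p = 0.0286). That call was lost without CN-10 replicate 2 (adjusted p = 0.0839), 3-44 replicate 2 (0.077) or 3-44 replicate 4 (0.08) in the same limma fit, and also with percentile scaling, centred or not, with cyclic loess and without scaling. In 4-18 it was -0.32 (adjusted p = 0.179; 0.44 when scaled on the 75th percentile, and -0.81 and -0.68 from the processed signal, with adjusted p = 0.0117 and 0.0204) and in shRNA3T 0.27 (0.375), by limma. Between silenced groups *Isg15* was lower in 4-18 than in 3-44 by 1.94-fold (-0.96, limma adjusted p = 0.000497; -1.79 to -0.19 over the other scalings, passing under 4 of 6) and than in shRNA3T by 1.5-fold (-0.59, adjusted p = 0.017), the latter passing under 2 of 6 and turning to 0.28 when scaled on the 75th percentile.

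*Eif2ak2* encodes PKR, the kinase that binds double-stranded RNA and halts translation. Its brighter probe, printed in 10 spots, read 9.49, 9.96, 10.03 and 9.85 in CN-10 and 9.47, 9.44, 9.43 and 9.50 in 4-18. It read 9.58, 9.77, 9.87 and 9.52 in 3-44 and 10.13, 10.27, 10.02 and 10.00 in shRNA3T. The 4-18 arrays were close together at the lower edge of the control arrays, which they met at control replicate 1.
The difference was -0.37 in 4-18 (limma adjusted p = 0.0265, exact permutation p = 0.0571), and leaving out CN-10 replicate 2, 3 or 4 or 4-18 replicate 3 raised the limma adjusted p to 0.0811, 0.0893, 0.0564 and 0.0559. The call was also lost with percentile scaling (-0.21, limma adjusted p = 0.339), in the 8 arrays alone (0.0667), with trended moderation (0.0576) and with the mean over probes (0.0874). In 3-44 it was -0.15 (adjusted p = 0.541) and in shRNA3T 0.27 (0.15), by limma. Against shRNA3T the difference was -0.64 in 4-18 (limma adjusted p = 0.000756) and -0.42 in 3-44 (0.0255). The former passed under all 6 other scalings and the latter under 3 of them. A second probe of the gene gave -0.35, -0.38 and -0.08 against CN-10, none of which passed (limma adjusted p = 0.327, 0.43 and 0.927).

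*Oas1a* encodes an oligoadenylate synthetase, which is activated by binding double-stranded RNA. Its values lay between 6.20 and 6.64 on all 16 arrays, and it was well above background on 1 array, CN-10 replicate 3. A difference was therefore not measurable, and no fold is given.

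Among the transcription factors, *Stat2* and *Irf9* encode subunits of ISGF3. *Stat2* read 11.33, 12.04, 12.04 and 11.98 in CN-10, 11.40, 12.29, 12.38 and 12.30 in 4-18, 11.13, 12.29, 12.33 and 12.18 in 3-44, and 10.98, 11.88, 11.95 and 11.93 in shRNA3T. Replicate 1 was the lowest array in each of the 4 groups, by 0.69 to 1.14 below the mean of the other 3, and the groups overlapped.
The differences from CN-10 were 0.24, 0.13 and -0.16 in 4-18, 3-44 and shRNA3T, with limma adjusted p = 0.639, 0.875 and 0.863. With replicate 1 of every group left out they were 0.30 (adjusted p = 0.00552), 0.25 (0.0345) and -0.10 (0.402) in the same limma fit. With the replicate number as a block, the difference in 4-18 also passed by adjusted p, as given in the last paragraph. The difference in 4-18 was -0.64 and -0.49 under the centred percentile scaling and without scaling.

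*Irf9* was dim, at 7.74, 7.11, 7.55 and 7.17 in CN-10 and 7.73, 7.40, 7.60 and 7.23 in 4-18, where it was well above background on 3 of 4 arrays. It read 7.70, 8.09, 7.76 and 7.86 in 3-44 and 8.34, 7.89, 7.96 and 7.97 in shRNA3T. The shRNA3T arrays all lay above the control arrays, whereas those of the clones overlapped them.
The difference was 0.65 in shRNA3T (1.57-fold, limma adjusted p = 0.012, exact permutation p = 0.0286) and stayed positive under every scaling, with adjusted p up to 0.678 without scaling. It was 0.46 in 3-44 and 0.10 in 4-18 (limma adjusted p = 0.0937 and 0.713), the latter between -0.22 and 0.79 under other scalings. *Irf9* in 4-18 was lower than in shRNA3T, with a difference of -0.55 (limma adjusted p = 0.0202), which passed under 3 of the 6 other scalings and turned to 0.18 when scaled on the 75th percentile.

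*Irf7*, the regulator that amplifies the production of interferon α, varied widely between arrays of a group. The CN-10 arrays read 9.01, 10.06, 8.74 and 10.05, the 4-18 arrays 8.27, 9.77, 9.27 and 8.82, the 3-44 arrays 8.42, 10.26, 10.21 and 10.17, and the shRNA3T arrays 9.41, 9.54, 9.45 and 9.50. All groups overlapped, and the spread within the clones covered the distances between the group means. The differences were -0.43 in 4-18 (95% interval -1.32 to 0.46), 0.30 in 3-44 (-0.59 to 1.20) and 0.01 in shRNA3T (-0.88 to 0.90), with limma adjusted p = 0.528, 0.775 and 0.994. These intervals do not reach the 2-fold decrease in 3-44 and shRNA3T and do reach it in 4-18. They reach a 2-fold increase in 3-44 and not in 4-18 or shRNA3T.

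*Irf1* is induced mainly by interferon γ through its GAS and was the member with the largest positive differences. The brighter of its 2 probes read 10.51, 10.11, 10.37 and 10.97 in CN-10, 12.11, 10.13, 11.65 and 11.47 in 4-18, 11.89, 10.58 and 11.69 in 3-44 (replicate 2 set aside, 11.19 when kept), and 11.23, 11.25, 11.05 and 11.24 in shRNA3T. The shRNA3T arrays lay above all control arrays, and in each clone 1 array lay among them. The differences were 0.85, 0.90 and 0.71 in 4-18, 3-44 and shRNA3T, with limma adjusted p = 0.115, 0.223 and 0.28.
Without 4-18 replicate 2 the difference in 4-18 was 1.26 (limma adjusted p = 0.00546), and under the centred percentile scaling with all arrays it was 0.01. The second probe, upstream of the first in the array's coordinates, read 7.15 to 7.58 in CN-10, 7.40 to 8.41 in 4-18, 8.25 to 8.69 in 3-44 and 7.41 to 7.85 in shRNA3T. There the 3-44 arrays stood apart from the control, 2.06-fold higher (1.04, limma adjusted p = 0.00169, exact permutation p = 0.0286), and the differences in 4-18 and shRNA3T were 0.56 and 0.31 (limma adjusted p = 0.032 and 0.34). The call in 3-44 was lost with percentile scaling, centred or not, and without scaling, and the one in 4-18 with the centred form, from the processed signal and without scaling. The probes of *Irf1* thus agreed in the sign of the difference in each group and differed in which group passed.

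Between the silenced groups, 3 of the 9 members passed by adjusted p in 4-18 against 3-44 (22.1% of all probes), 4 in 4-18 against shRNA3T (20.1%) and 3 in 3-44 against shRNA3T (10.6%), in the limma fit. Each of these counts includes *Mx1*, which had been picked on these arrays. *Mx1* was lower in 4-18 than in the other silenced groups under every scaling, with differences of -3.05 to -1.77 from 3-44 and of -2.13 to -1.10 from shRNA3T. *Irf7*, *Stat2*, *Oas1a* and the brighter *Irf1* probe passed in none of the 3 pairs. The dimmer *Irf1* probe was higher in 3-44 than in shRNA3T (0.73, limma adjusted p = 0.0144, exact permutation p = 0.0286), a call that was lost with percentile scaling, centred or not, and without scaling.

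The other genes of the system were taken from lists of interferon-stimulated effectors, transcription factors, ligands with their receptors and kinases, nucleic acid sensors, and antigen presentation genes with interferon-induced chemokines. Of 134 listed genes 116 were on the array, and 115 were counted apart from *Mx1*, of which 87 were well above background on all arrays of some group. In 4-18, 20 (17.4%) were higher and 12 (10.4%) lower by limma adjusted p, and 5 and 4 at 2-fold (2.55% and 3.36% of all probes). The counts at 2-fold were 42 and 5 with percentile scaling, 4 and 17 with its centred form, and 5 and 11 without scaling. They were 5 and 4 with cyclic loess, and 7 and 4 (percentile) and 7 and 7 (quantile) from the processed signal. The split by adjusted p depends on the scaling as well, since the 75th percentile gave 59 higher and 8 lower, the same centred on the median probe 5 and 32, and no scaling 5 and 15. The shares of all probes, 11.6% and 12%, are those of quantile normalization. None was computed under another scaling, for this or any other list. With the 75th percentile the median difference in 4-18 was 0.86 over all probes and 0.78 over the lists. Cyclic loess gave 17 and 13, and the processed signal 18 and 16 (percentile) and 21 and 15 (quantile). In 3-44, 6 (5.22%) were higher and 1 (0.87%) lower, beside 3.48% and 4.37% of all probes, and 0 passed at 2-fold. With percentile scaling, centred or not, and without scaling, 0 passed in 3-44 in either direction. The counts there were 6 and 3 with cyclic loess, and 8 and 4 (percentile) and 7 and 3 (quantile) from the processed signal, which had 2 higher at 2-fold under both and 1 lower under the latter. In shRNA3T, 8 (6.96%) were higher and 5 (4.35%) lower, beside 5% and 6.85% of all probes, with 2 higher and 0 lower at 2-fold. There the percentile scaling gave 2 higher and 1 lower, its centred form 3 and 1, no scaling 1 and 0, cyclic loess 9 and 7, and the processed signal 10 and 5 (percentile) and 11 and 1 (quantile), with 3 higher at 2-fold under both of the latter and 3 and 1 lower. The median difference over the lists was 0.09, 0.07 and 0.01 in 4-18, 3-44 and shRNA3T. Apart from *Mx1*, 0 of these genes were called at 2-fold in more than 1 comparison, and 0 passed by adjusted p in the same direction in all 3.

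**Figure D3:**
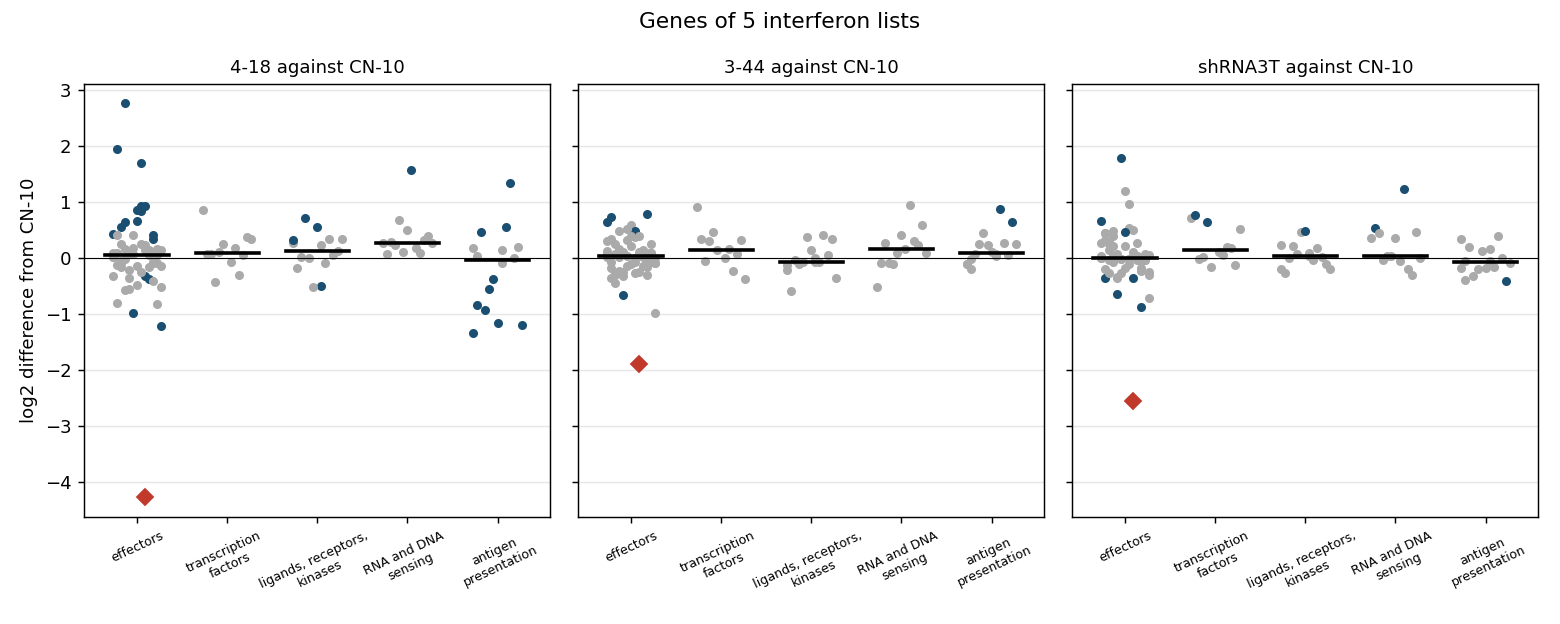
Log2 difference from CN-10 of the listed interferon genes, 1 point per gene, by list and silenced group, dark where the adjusted p was under 0.05, with *Mx1* as a red diamond and black bars for the list medians without it. *Mx1* lies below all other listed genes in the 3 comparisons, and the medians over all 115 other genes are 0.09, 0.07 and 0.01.

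Of the 59 effectors other than *Mx1*, 13 were higher and 4 lower in 4-18, 4 and 1 in 3-44, and 3 and 4 in shRNA3T, by limma adjusted p. Over all probes the shares were 11.6% and 12%, 3.48% and 4.37%, and 5% and 6.85%. The effector counts in 4-18 were 32 and 2 with percentile scaling, 3 and 15 with its centred form, 3 and 7 without scaling, 11 and 5 with cyclic loess, and 10 and 9 (percentile) and 11 and 8 (quantile) from the processed signal. *Trim25*, the ubiquitin ligase that activates the sensor RIG-I, rose in 4-18 by 1.69 (limma adjusted p = 0.00417) and differed by -0.01 and 0.97 in the others (adjusted p of the latter 0.126). Its call in 4-18 was lost with the centred percentile scaling and without scaling. *Slfn3*, a Schlafen family gene, rose in shRNA3T by 1.78 (limma adjusted p = 5.63e-05) and differed by 0.41 in 4-18 and 0.51 in 3-44. *Slfn3* and *Trim25* were among the 3 with the highest mean difference over the 3 comparisons, of the listed genes that were well above background in some group.
At the lower end were *Igtp*, an interferon γ-induced GTPase, *Gbp2*, a guanylate-binding protein, and *Tapbp*, which loads peptides onto class I molecules. *Igtp* fell in 4-18 by 1.21 (limma adjusted p = 0.0354) and differed by -0.98 and -0.71 in 3-44 and shRNA3T (0.167 and 0.315). Its SD was 1.19 in 4-18 and 0.15, 0.12 and 0.15 in CN-10, 3-44 and shRNA3T, and the fit pools these spreads. Only the brightest of its 3 probes is reported. *Gbp2* fell by 0.65 in 3-44 and by 0.64 in shRNA3T (limma adjusted p = 0.0116 and 0.00906), with -0.36 in 4-18 (0.088). *Tapbp* fell in 4-18 by 0.83 (limma adjusted p = 0.000523), with -0.19 and -0.40 in the others. None of these falls came near that of *Mx1* in size, and each called one kept its sign under all scalings tried. The call was lost, however, under several of them, namely for *Gbp2* with percentile scaling, centred or not, and without scaling in both groups, with quantile normalization of the processed signal in shRNA3T, and for *Igtp* with cyclic loess and from the processed signal of the scanner software.

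Other genes called at 2-fold were named after their values were seen. In 4-18 these included *Ifi44* (1.95), *Dhx58* (1.56), which encodes the RNA sensor LGP2, and the chemokine *Cxcl9* (1.35), all higher, and 3 antigen presentation genes, *B2m* (-1.34) and the proteasome activator subunits *Psme1* (-1.20) and *Psme2* (-1.15), all lower. In shRNA3T it was *Ikbke* (1.23), a kinase that activates IRF3, whose call was lost with percentile scaling, centred or not, and without scaling. Of the 16 antigen presentation and chemokine genes, 3 were higher and 7 lower in 4-18, the 3 being *Cxcl9*, *Cxcl10* and *Cxcl11*, by limma adjusted p (11.6% and 12% of all probes). With percentile scaling the counts were 6 and 6, with its centred form 1 and 10, without scaling 1 and 7, with cyclic loess 3 and 7, and from the processed signal 3 and 6 under both scalings. The counts were 2 and 0 in 3-44 (3.48% and 4.37% of all probes), and 0 and 1 in shRNA3T (5% and 6.85%). With percentile scaling, centred or not, and without scaling they were 0 and 0 in both groups. Cyclic loess gave 2 and 0 in 3-44 and 0 and 2 in shRNA3T. The processed signal gave 3 and 0 in 3-44 and 0 and 0 in shRNA3T under both scalings.

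The start of the pathway was also looked at. Probes for *Ifnb1*, *Ifng*, *Ifnk* and *Ifna1* were well above background on 3, 2, 0 and 1 of the 16 arrays, so the RNA of these 4 interferons was near or below what the arrays could measure. *Ifna4* was well above background on all 16 arrays, with means of 8.39, 7.89, 8.31 and 8.48 in CN-10, 4-18, 3-44 and shRNA3T, and differed by -0.49 in 4-18 (limma adjusted p = 0.0055; -0.0187 when scaled on the 75th percentile). The receptor genes *Ifnar1*, *Ifngr1*, *Ifngr2* and *Il10rb* and the kinases *Jak1* and *Jak2* were measured on every array, and the type III receptor gene *Ifnlr1* on none. Of the 15 ligand, receptor and kinase genes, 3 were higher and 1 lower in 4-18, 0 passed in 3-44 and 1 was higher in shRNA3T, by limma adjusted p. Of the 12 transcription factors 0, 0 and 2 were higher and 0 lower in any group, the 2 being *Irf3* and *Irf9*. Of the 13 sensor genes 1, 0 and 2 were higher and 0 lower. These counts over small lists stand beside shares of all probes of 11.6% higher and 12% lower in 4-18, 3.48% and 4.37% in 3-44, and 5% and 6.85% in shRNA3T. In 4-18 the percentile scaling gave 10, 5 and 6 higher and 0 lower for the ligand, factor and sensor lists, and its centred form 0, 0 and 1 higher and 4, 1 and 2 lower.

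Markers of other cell types were mostly, but not all, near background. The leukocyte marker *Ptprc* and the macrophage marker *Cd163* were well above background on no array. The summed signal of the 6 macrophage markers on the array lay between 9.84 and 10.22 in CN-10, 10.29 and 10.48 in 4-18, 11.07 and 11.55 in 3-44, and 10.44 and 10.70 in shRNA3T, on the log2 scale. *Cd14*, which hepatocytes also express, was higher by 0.81, 2.04 and 0.98 in 4-18, 3-44 and shRNA3T (limma adjusted p = 0.00185, 1.73e-06 and 0.000857), or by 0.0992 in 4-18 under the centred percentile scaling. *Marco* was well above background on 1 array of the 16, *Csf1r* differed by 0.0067, -0.22 and -0.14 (limma adjusted p = 0.989, 0.701 and 0.855), and *Cd68* by -0.43 (0.0142), -0.11 and -0.0374, the value in 4-18 turning to 0.23 with percentile scaling. Of the 7 lymphocyte markers, *Cd3d* was well above background on all 16 arrays and lower by limma in the 3 silenced groups, at -0.35, -0.40 and -0.43 (adjusted p = 0.00435, 0.00507 and 0.00187; -0.007 in 4-18 with percentile scaling). *Cd79a*, well above background on all CN-10 arrays and 1 other, differed by -0.48, -0.20 and -0.34 (limma adjusted p = 0.000173, 0.108 and 0.00518; 0.67 in 4-18 with percentile scaling), while *Cd8a* was well above background on no array. *Nkg7*, well above background on 15 of the 16 arrays, differed the other way, by 0.36, 0.25 and 0.25 (limma adjusted p = 0.0857, 0.363 and 0.336), with the same sign under all scalings. The summed lymphocyte signal was 9.91 to 10.01 in CN-10 and 9.68 to 9.94 over the silenced arrays. The stellate cell and muscle marker *Des* was lower in the 3 silenced groups, at -1.17, -0.81 and -0.98 (limma adjusted p = 4.54e-05, 0.00358 and 0.000511), with the same sign under all scalings, whereas *Lrat* was well above background on no array. *Col1a1*, a collagen gene of the same list that was well above background on all 16 arrays, differed the other way, by 0.25, 0.20 and 0.52 (limma adjusted p = 0.273, 0.537 and 0.0338; -0.15 in 4-18 under the centred percentile scaling). The summed signal of the 5 stellate cell and fibroblast markers was 9.62 to 9.80 in CN-10, 9.36 to 9.49 in 4-18, 9.46 to 9.54 in 3-44 and 9.53 to 9.76 in shRNA3T. The part of these markers in the values of the members was not tested.

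The probes whose pattern was most like that of *Mx1* were found by Pearson's r over the 15 arrays with a value of *Mx1* (the set-aside control array is missing), among 2896 probes well above background in some group and spanning at least 1 log2 unit between group means. The 5 gene names with the highest r were *Ly6d* (0.967), *LOC686437* (0.962), *Cxcl1* (0.956), *Sema3c* (0.951) and *RGD1563365* (0.945). *Cxcl1* encodes a chemokine that attracts neutrophils, and *Ly6d* a lymphocyte antigen anchored in the membrane. The mean of *Cxcl1* was 13.07 for CN-10, 8.68 for 4-18, 10.34 for 3-44 and 9.89 for shRNA3T, which are differences of -4.39, -2.73 and -3.18 from the control. *Ly6d* had means of 10.86, 7.22, 9.44 and 8.57 in the same order. Of these 5 genes 0 were on the interferon lists, which hold 116 of the 26269 gene names of the array, so this count says little. The correlation of the members other than *Oas1a* with *Mx1* over the same arrays was -0.703 for *Mx2*, -0.456 for *Irf1*, -0.201 for *Irf9*, 0.0175 for *Stat2*, 0.323 for *Isg15*, 0.416 for *Irf7* and 0.527 for *Eif2ak2*. The arrays share group and slide, so these values describe the order of the group levels and no more.

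**Figure D4:**
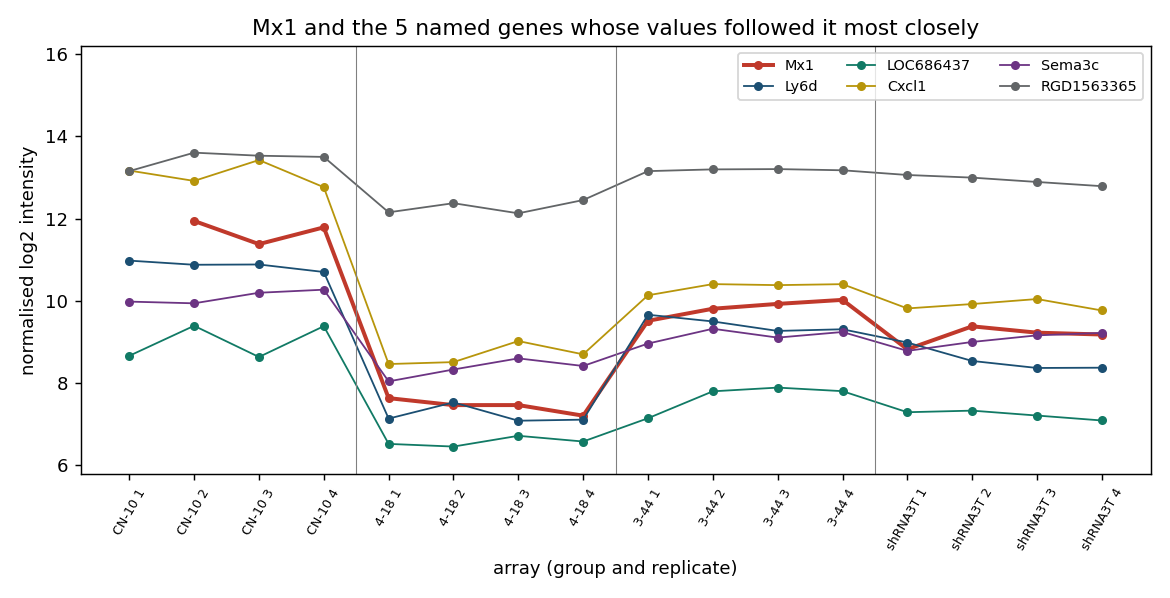
Log2 intensity on every array of *Mx1* and of the 5 probes with the most similar pattern, by group, 1 line per gene. All 6 have their highest group mean in CN-10 and their lowest in 4-18, with *Cxcl1* spanning 13.07 to 8.68 and *Mx1* 11.71 to 7.45 between those group means.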

How the data were processed

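RNA of 16 cultures was hybridized to one-color Agilent rat arrays, 4 biological replicates per group according to the labels, which also gave groups and replicate numbers. Spots were quantified by the authors with the Feature Extraction software (version 10.7.3.1). The deposited intensity values are mean spot signals and median local backgrounds on a linear scale, not normalized. The authors also deposited a table of log2 values per array whose decimal points were lost. Once restored, these values correlated at 1 with log2 of the normexp-corrected median signal of each array and were not scaled between arrays. Their medians in 4-18 were 7.427, 7.657, 7.529 and 8.963, so replicate 4 stood apart in the results without scaling. Their background correction and normalization for the published lists used limma, with settings not given in the sources used here.

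From the intensities, background was corrected in R 4.3.3 with limma 3.58.1 (normexp, offset 50, all spots), control spots were left out, arrays were quantile normalized, outlier-flagged spots were set aside and spots of a probe averaged. All 16 arrays entered 1 linear model with a mean for each group and empirical Bayes moderation, and p-values were adjusted (Benjamini-Hochberg) over all probes with a value in both groups (30366 or 30367). A call needed 2-fold and an adjusted p under 0.05, or the adjusted p alone where stated. Two-sided exact permutation was a second test (smallest p 0.0286), for *Mx1* only between silenced groups. The linear model was tried on simulated probe values, but the steps before it and the permutation test were not. A gene with several probes was represented by the brightest. The number of arrays limits the precision.

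The members and lists were chosen with earlier results of these data known. Named were the 9 members, listed genes called in at least 2 comparisons, the 3 highest and 3 lowest by mean difference among listed genes well above background in some group, and the 5 probes most like *Mx1*; 1 gene under this rule is not reported here. Promoters are from RefSeq GRCr8 (7 of 9 members matched), probe positions from the array files (rn4). Alternatives were other scalings and background corrections, the deposited values, dim probes or outlier spots treated otherwise, 8 arrays only, array weights, trended moderation, a replicate block, probe means, a 1.5-fold limit and each array left out.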

Additional observations from a re-analysis of the deposited data

Results flagged for a closer look

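In 34 sets of 4 arrays (a member in a group), the distance of the extreme array to its neighbour was set against the range of the set. In 8 sets it exceeded Dixon's 95% critical ratio, which chance exceeds in about 1 of 20 sets. Replicate 1 was the low array of *Stat2* in CN-10 (0.919), 4-18 (0.911), 3-44 (0.872) and shRNA3T (0.926), and of *Irf7* in 3-44 (0.953). Replicate 1 was the high array of *Mx2* in 3-44 (0.836). Replicate 2 was the low array of *Isg15* in CN-10 (0.867) and replicate 3 that of *Irf1* in shRNA3T (0.89). *Irf7* was lower on replicate 1 than on the mean of the others in 4 of 4 groups, with differences of -0.60, -1.01, -1.79 and -0.09 in CN-10, 4-18, 3-44 and shRNA3T.

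The silenced groups differed from one another in their difference from the shared control, by the limma test between them. For *Mx1* that test is not free of the selection, since the gene was picked on these arrays. For 4-18 against 3-44 this held for *Mx1* (-2.37), *Mx2* (0.86) and *Isg15* (-0.96). For 4-18 against shRNA3T it held for *Mx1* (-1.71), *Isg15* (-0.59), *Irf9* (-0.55) and *Eif2ak2* (-0.64). For 3-44 against shRNA3T, which carry the same hairpin, it held for *Mx1* (0.67), *Mx2* (-0.56) and *Eif2ak2* (-0.42). Under another scaling *Mx2* in the first pair and *Isg15* and *Irf9* in the second changed sign, and for the third pair 0 members passed with percentile scaling, centred or not, or on the deposited values.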

How the results depend on the processing

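The lower level of *Mx1* kept its direction in all 3 comparisons under every alternative run, and with each array left out the difference was -4.42 to -4.14 in 4-18, -2.05 to -1.77 in 3-44 and -2.71 to -2.43 in shRNA3T. In 4-18, where it was near background, it was -3.69 with scaling on the 75th percentile, -4.55 with the same centred on the median probe, -3.87 with cyclic loess, -4.89 and -4.85 from the processed signal (percentile and quantile), and -4.57 with an offset of 16. The percentile scaling moved the median of all probes in 4-18 by 0.86, and the list median there was 0.78, or -0.0802 once centred.

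The counts of 0 or 1 called members were less settled, and the cause was not tested. No share of all probes was computed under the alternatives, so none stands beside the counts that follow. In 4-18 the count of higher members by adjusted p was 3 under percentile scaling, 0 centred, 0 on the deposited values, and 2 with array weights or without replicate 1 of every group. The count of lower members was 0 under percentile scaling, in the 8 arrays alone, with trended moderation and with probe means, and 2 from the processed signal under both scalings. At 2-fold, 1 was higher under percentile scaling and with array weights, and 1 lower under the centred scaling. In 3-44 the count of higher members was 0 under percentile scaling, centred, with cyclic loess and on the deposited values, 2 from the processed signal under both scalings and with array weights, and 3 without replicate 1; 1 was lower with array weights. At 2-fold it was 1 from the quantile normalized processed signal, and 1 at a 1.5-fold limit. In shRNA3T it was 0 under percentile scaling, centred and on the deposited values, 2 with outlier spots kept or 8 arrays alone, 3 with array weights, and 1 at a 1.5-fold limit. Between silenced groups, 4-18 against 3-44 gave 5 from the percentile scaled processed signal and 1 on the deposited values, 4-18 against shRNA3T gave 2 on the deposited values, and 3-44 against shRNA3T gave 0 under percentile scaling, centred and on the deposited values, and 5 without replicate 1.

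With each array left out, the higher members ranged from 1 to 2 in 4-18 (2 without 4-18 replicate 2) and from 0 to 2 in 3-44 (0 without CN-10 replicate 2, 3-44 replicate 2 or 3-44 replicate 4; 2 without CN-10 replicate 1), the lower members in 4-18 from 0 to 1, and those higher at 2-fold in 4-18 from 0 to 1. In 4-18 against shRNA3T they ranged from 2 to 5 (2 without shRNA3T replicate 1).

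Small differences changed sign. In 4-18 *Mx2* was -0.31 (centred) and -0.17 (deposited values), *Isg15* 0.44 (percentile), *Stat2* -0.64 and -0.49, and *Irf9* -0.0673 (centred), -0.22 and -0.0866 (processed signal). In 3-44 *Stat2* was -0.0119 on the deposited values, and -0.0387 (without CN-10 replicate 1) to 0.42 with each array left out. In shRNA3T *Irf7* was -0.0496 and -0.0841 from the processed signal, -0.0405 with array weights and -0.12 without replicate 1, and with each array left out it was -0.23 to 0.21 and *Stat2* -0.33 to 0.0745.

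The groups share replicate numbers. Deviations from the group mean correlated at 0.193 to 0.479 between arrays numbered 1 (6 pairs), at -0.123 to 0.276 between arrays of another shared number (18 pairs) and at -0.445 to 0.303 between different numbers, and 7 of 16 arrays correlated best with their own number, so the numbers were not taken as pairs. With the number as a replicate block, *Mx1* was -4.21, -1.84 and -2.50, and 2 members were higher in 4-18, *Stat2* being added (0.24, limma adjusted p = 0.0398). The signal over background limits *Oas1a*, *Isg15*, *Irf9* and, in 4-18, *Mx1*.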
